A study of Mus musculus with 8 samples.

Results

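The inducible inhibitors that restrain mitogen-activated protein kinase (MAPK) signalling were examined at the RNA level in SV-LECs, with and without TGFβ1. The group comprised 10 genes, selected by symbol: the MAPK phosphatases Dusp1, Dusp4, Dusp5, Dusp6 and Dusp10, the Sprouty genes Spry1, Spry2 and Spry4, and the Spred genes Spred1 and Spred2. Each symbol had a single row among the 55471 genes of the count table, and all 10 were among the 13818 genes with enough counts to be tested. SV-LECs are a mouse lymphatic endothelial line, isolated from the adventitia of the mesentery and immortalized with SV40, and all samples are of this line. They were grown in high-glucose DMEM with 10% FBS and were either left untreated or given TGFβ1 at 10 ng/ml for 72 h, with 4 libraries in each group and 8 in all. The study's methods call the 4 samples technical replicates, so the errors and FDRs below cover technical spread and not the spread between independent experiments.

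MAPK cascades carry signals from growth factor receptors and stress to the nucleus through a kinase relay, ending in ERK, JNK or p38. The dual-specificity phosphatases (DUSPs) of this group remove the phosphates that activate these kinases. Sprouty and Spred proteins act higher up, between receptor tyrosine kinases, RAS and RAF. Many of these genes are themselves switched on by the pathway that they restrain, and their RNA is therefore often read beside ERK target genes.

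Dusp4 and Dusp6 were the members that changed most, at 2.35-fold and 1.99-fold of the untreated level, and Spred2 rose 1.44-fold. Dusp1, Dusp10 and Spry2 rose by smaller amounts, and Dusp5, Spry1, Spry4 and Spred1 did not pass the test. Thus 6 of 10 members were called higher at an FDR under 0.05, against 37.6% of all genes tested, and none was called lower, against 38.0%. The members were chosen with earlier results of these data known, so these counts are a description and not a test. The count of 0 members lower came from the edgeR likelihood ratio test, and it was also 0 at an unadjusted p under 0.05, with the quasi-likelihood test and with DESeq2. It was 1 when libraries were scaled by total counts alone (Spry4) and 1 without TGFβ1 library 3 (Spry1). Calls in either direction covered 75.6% of all genes tested, so that a call alone says little about a gene in this comparison. With an absolute log2 fold change above 0.5 also required, 3 of 10 members were called, against 39.3% of all genes. The median log2 fold change was 0.30 over the members and -0.0064 over all genes tested.

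Total counts were between 18952504 and 26386941 per library, and a floor of 3 counts lay between 0.113 and 0.162 CPM, the read count after division by the TMM-normalized library size. The floor covers counting error only. The member with the fewest counts, Spry4, had 120 to 189 counts per library. The spread between libraries of 1 group exceeded sampling noise, with a chi-square per degree of freedom of 2.37 to 7.84 over the pairs, and the first principal component held 88.8% of the variance. Mitochondrial counts were 0.00641 to 0.00879% of the untreated and 0.0185 to 0.0207% of the TGFβ1 libraries. The response to the treatment was visible in 5 of 5 tested TGFβ response genes, among them Ltbp2 with a log2 fold change of 2.63, whereas Tgfbi had at most 3 counts in every library. The 6 proliferation markers were all lower, their sum falling from 1988 to 2082 CPM in untreated libraries to 866 to 917 CPM in TGFβ1 libraries.

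The labelled cell type was only partly matched by its markers. Of 7 lymphatic endothelial markers, Pdpn, Flt4 and Nrp2 were detected, while Prox1, Lyve1, Reln and Ccl21a had at most 3 counts in every library. Of 8 general endothelial markers, Cdh5, Tie1, Emcn and Erg were at or under the same floor. The lymphatic list summed to 412 to 448 CPM in untreated and 426 to 440 CPM in TGFβ1 libraries, where Pdpn was lower by a log2 fold change of -0.13 while Flt4 and Nrp2 were higher by 0.44 and 0.41. The endothelial list summed to 11.5 to 13.1 and 22.2 to 24.1 CPM, nearly all of it from Kdr, and without Kdr to 0.526 to 1.01 and 0.811 to 1.16 CPM. Markers of fibroblasts and mural cells, all 8 detected above the floor in at least 1 library, summed to 774 to 832 CPM in untreated and 1192 to 1268 CPM in TGFβ1 libraries. Their members moved in opposite directions, since Acta2 rose from 263.9 to 981.1 CPM whereas Dcn fell from 311.7 to 83.0 CPM and Pdgfra from 160.0 to 57.8 CPM, and without Acta2 the sum was 512 to 554 CPM in untreated and 228 to 258 CPM in TGFβ1 libraries. Epithelial markers lay at 34.2 to 40.7 and 38.0 to 45.1 CPM. Of 3 tested epithelial markers, 2 rose and 1 did not pass, with log2 fold changes from 0.067 to 2.47. With 1 CPM required in at least 4 libraries, 0 epithelial markers were called, but genes short of this level are left out of that fit and not tested. Of 5 leukocyte markers, which summed to 5.88 to 7.82 and 14.9 to 17.0 CPM, Ptprc, Itgam and Cd3e had at most 3 counts in every library. The part of these shifts, and of the lower proliferation markers, in the results below was not tested. Fewer cells of a type and less RNA per cell cannot be told apart in such samples.

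Promoters were inspected for the RefSeq entries that matched, 8 of 10 members, as the 250 bases before the start site on GRCm38.p6. Dusp4 and Spry4 had no entry. The sequences of Dusp6, which rose 1.99-fold, of Dusp1, which rose less, and of Dusp5, which did not pass the test, are shown 5′ to 3′ on the coding strand because their motif content differs. Capitals mark matches to the ETS core GGAA or its complement in Dusp6, to the cAMP response element TGACGTCA in Dusp1, and to the CArG box, the site of serum response factor, in Dusp5.
Dusp6, chr10:99262981-99263230, plus strand: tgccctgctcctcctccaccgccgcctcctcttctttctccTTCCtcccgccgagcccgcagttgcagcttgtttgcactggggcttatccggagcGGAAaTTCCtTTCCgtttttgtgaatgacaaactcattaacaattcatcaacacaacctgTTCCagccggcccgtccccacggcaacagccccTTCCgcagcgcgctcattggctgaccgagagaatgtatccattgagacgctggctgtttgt
Dusp1, chr17:26508473-26508722, minus strand: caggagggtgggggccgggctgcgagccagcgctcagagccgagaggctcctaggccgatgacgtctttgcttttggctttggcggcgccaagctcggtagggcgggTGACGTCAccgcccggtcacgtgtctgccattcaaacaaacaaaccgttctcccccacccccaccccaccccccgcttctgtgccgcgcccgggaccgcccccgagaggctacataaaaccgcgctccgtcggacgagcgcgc
Dusp5, chr19:53528895-53529144, plus strand: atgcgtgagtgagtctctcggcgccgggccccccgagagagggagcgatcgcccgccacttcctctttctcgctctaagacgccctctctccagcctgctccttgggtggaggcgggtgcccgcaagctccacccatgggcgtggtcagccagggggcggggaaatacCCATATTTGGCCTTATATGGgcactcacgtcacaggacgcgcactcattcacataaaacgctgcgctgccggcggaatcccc
The Dusp6 promoter held 6 ETS core matches, where the median over 32851 mouse promoters was 3 and 93.5% held at least 1. Of the members, 6 of 8 held this core, Spred2 had 7 matches, and Dusp1 and Dusp10 had none. The cAMP response element, present in 1.55% of promoters, lay at -143 in Dusp1 and in no other member. Dusp5 was the only member with a CArG box, at -82 and -72 in adjoining copies, against 1.47% of promoters. The SMAD core GTCTG occurred in 1 of 8 members, Dusp1, against 42.2% of promoters, and the AP-1 element TGAGTCA in 0 of 8, against 4.46%. Start sites are those of RefSeq, whose Dusp1 gene spans 26505591 to 26508472 and whose Dusp5 gene starts at 53529145. The GENCODE gene bounds given below are wider, so that the Dusp1 stretch lies inside the GENCODE gene and the Dusp5 stretch reaches into it. Both strands were searched. The matches of GTCTG and TGACGTCA in Dusp1, at -121 and -143, do not overlap. A match is a description of letters and not of a bound site.

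Dusp6 encodes a cytoplasmic phosphatase that acts on ERK and is a widely used readout of ERK activity. The gene (ENSMUSG00000019960) lies on chromosome 10 at 99263231 to 99267489 of GRCm38 and has 3132 exonic bases. Its RNA was at 37.5, 36.9, 34.0 and 32.5 CPM in untreated libraries 1 to 4 and at 71.7, 69.3, 70.2 and 69.8 CPM in the TGFβ1 libraries. Every treated library lay far above every untreated one. The mean went from 35.2 ± 2.38 to 70.2 ± 1.04 CPM (SD, n = 4 each), a log2 fold change of 0.99 (SE 0.0546, FDR 5.42e-73).

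Dusp4, a nuclear phosphatase of ERK and JNK, had the largest change of the group. The gene (ENSMUSG00000031530) lies on chromosome 8 at 34807297 to 34819894. It stood at 20.7, 19.2, 18.4 and 20.0 CPM in untreated libraries and at 44.4, 44.0, 47.4 and 48.0 CPM after TGFβ1. The lowest treated library was far above the highest untreated one. The means of 19.6 ± 0.965 and 45.9 ± 2.04 CPM gave a log2 fold change of 1.23 (SE 0.0606, FDR 3.31e-92). The size of this change exceeded that of 87.6% of all genes tested, and that of Dusp6 exceeded 82.3%. Dusp4 and Dusp6 were also the 2 members called when the change had to exceed 0.5 on the log2 scale in glmTreat of edgeR (FDR 2.06e-34 and 5.95e-20). That test called 4149 of all 13818 genes tested, so passing it is not particular to these members.

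Of the other 3 phosphatases, Dusp1 and Dusp10 rose by less than Dusp4 and Dusp6, and Dusp5 did not pass the test. Dusp1, a nuclear phosphatase of p38, JNK and ERK and an immediate early gene, lies on chromosome 17 at 26505590 to 26562128. It was at 13.8, 11.9, 12.8 and 14.4 CPM in untreated and at 14.6, 16.3, 15.2 and 18.6 CPM in TGFβ1 libraries. The highest untreated library was just under the lowest treated one, so the groups did not overlap. Its log2 fold change was 0.30 (SE 0.0963, FDR 0.00286), smaller than the change of most genes tested, with 40.7% below it in size. An overlap of 11 bases with Ergic1 on the opposite strand touched 0.332% of its exonic length.

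Dusp10, a phosphatase of JNK and p38, lies on chromosome 1 at 184013302 to 184075636. Its values were 10.9, 12.7, 10.9 and 12.0 CPM without and 15.1, 14.5, 16.0 and 13.9 CPM with TGFβ1, again without overlap. The log2 fold change was 0.35 (SE 0.0859, FDR 8.55e-05). Dusp5, a nuclear phosphatase specific for ERK, lies on chromosome 19 at 53529109 to 53542431. It was at 12.6, 11.0, 12.7 and 10.8 CPM in untreated and at 13.3, 12.6, 11.7 and 10.5 CPM in TGFβ1 libraries, and the highest and the lowest of the 8 values were both in the treated group. The log2 fold change was 0.027, with a 95% interval from -0.165 to 0.219 (FDR 0.814). The upper bound lay below the lower bounds for Dusp6 and Dusp4, 0.886 and 1.12. On the opposite strand AC137853.2 covers 547 bases, 22.1% of the exonic length of Dusp5. With both strands searched, 19.7% of the 75-base stretches of Dusp5 transcripts also occur in other genes. That search takes in the overlap with AC137853.2, so these shares are not separate. AC137853.2 has no row in the count table, and whether reads were counted by strand is not given in the sources used here.

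**Figure D1:**
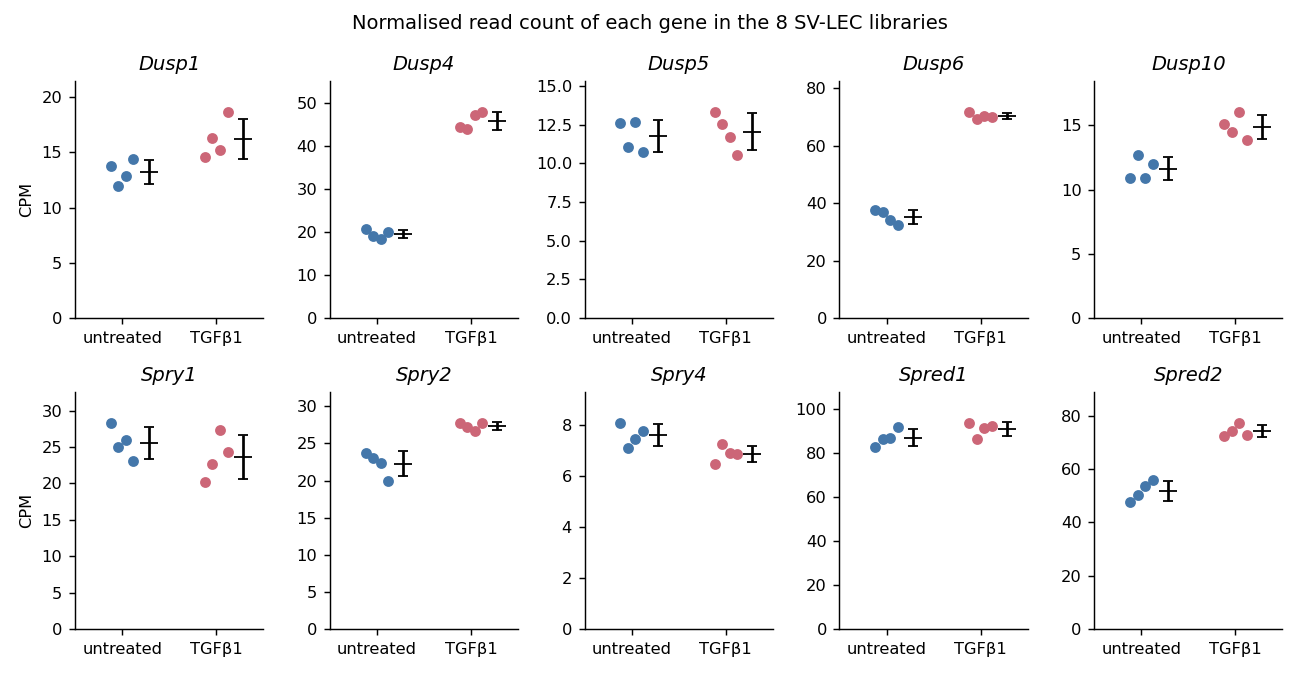
CPM of each of the 10 members in the 4 untreated and 4 TGFβ1-treated libraries, with 1 point per library and the mean and SD of each group. The groups are apart for Dusp1, Dusp4, Dusp6, Dusp10, Spry2 and Spred2, by far the most for Dusp4 and Dusp6, and overlap for Dusp5, Spry1, Spry4 and Spred1.

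The Sprouty genes, whose products block signalling from receptor tyrosine kinases to RAS and RAF, differed among themselves. Spry2 lies on chromosome 14 at 105891947 to 105896819 and was at 23.8, 23.0, 22.4 and 19.9 CPM in untreated and 27.8, 27.2, 26.6 and 27.8 CPM in TGFβ1 libraries. All treated values were above all untreated ones, and the log2 fold change was 0.29 (SE 0.0637, FDR 7.85e-06). Spry1, on chromosome 3 at 37639947 to 37644598, had 28.3, 24.9, 25.9 and 23.1 CPM without and 20.1, 22.7, 27.3 and 24.3 CPM with TGFβ1. These groups overlapped, and the log2 fold change of -0.11 had a 95% interval from -0.289 to 0.0618 (FDR 0.241). TGFβ1 library 3 held the highest treated value, and without it the log2 fold change of Spry1 was -0.19 (FDR 0.0433), a call of lower. Gm42922 covers 24.4% of the exonic length of Spry1 on the opposite strand but had only 2 to 4 counts per library.

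Spry4 is the least abundant member by length and lies on chromosome 18 at 38586247 to 38601415. It had 8.09, 7.10, 7.47 and 7.76 CPM in untreated and 6.49, 7.25, 6.89 and 6.87 CPM in TGFβ1 libraries. Of the treated libraries, 3 of 4 were below all untreated ones. The log2 fold change was -0.14, with a 95% interval from -0.333 to 0.0547 (FDR 0.191). When libraries were scaled by total counts alone it was -0.21 (FDR 0.0485), a scaling that also moved the median of all genes to -0.074.

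Spred proteins bring the RAS inactivator neurofibromin to the membrane. Spred2, on chromosome 11 at 19924375 to 20024026, was at 47.6, 50.1, 53.6 and 55.8 CPM in untreated and at 72.3, 74.4, 77.5 and 72.9 CPM in TGFβ1 libraries, with a wide gap between the groups. The log2 fold change was 0.52 (SE 0.0563, FDR 8.92e-20). It did not pass the glmTreat test against 0.5 (FDR 0.414), and it was 0.45 with total counts, 0.49 without a filter, 0.48 without untreated library 1 and 0.50 without TGFβ1 library 3. Spred1, on chromosome 2 at 117121374 to 117182279, had 82.7, 86.5, 86.9 and 92.1 CPM without and 93.9, 86.5, 91.5 and 92.2 CPM with TGFβ1. The groups overlapped and the log2 fold change was 0.065, with a 95% interval from -0.0304 to 0.159 (FDR 0.217). Over all members, the groups did not overlap for 6 of 10, where 69.8% of all genes tested had groups that did not overlap.

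Levels of different genes were compared per length, as FPKM, the CPM per kilobase of exonic sequence in GENCODE M21. In untreated cells Spred1 led with 12.8 ± 0.570 FPKM (SD, n = 4), followed by Dusp6 with 11.2 ± 0.760, Spred2 with 11.2 ± 0.793 and Spry2 with 10.7 ± 0.796. The spreads of Dusp6, Spred2 and Spry2 overlapped. Spry1 had 8.80 ± 0.754, Dusp4 7.14 ± 0.354 and Dusp5 4.75 ± 0.405 FPKM. Dusp1 with 3.99 ± 0.325 and Dusp10 with 3.82 ± 0.290 were within their spread of each other, and Spry4 was lowest at 1.60 ± 0.0893.

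After TGFβ1 the order of levels was different at the top. Dusp6 was then first with 22.4 ± 0.331 FPKM and Dusp4 second with 16.8 ± 0.745, up from sixth, ahead of Spred2 with 16.1 ± 0.502. The spreads of Dusp4 and Spred2 overlapped. Spred1 followed with 13.4 ± 0.472 and Spry2 with 13.1 ± 0.272, again within their spread, and Spry1 with 8.12 ± 1.03. Dusp10, Dusp1 and Dusp5 lay together at 4.89 ± 0.305, 4.88 ± 0.541 and 4.86 ± 0.484, and Spry4 stayed last at 1.45 ± 0.0655 FPKM.

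Summed by family, the 5 phosphatases went from 31.0 ± 1.00 to 53.8 ± 0.629 FPKM, the Spred genes from 24.0 ± 1.34 to 29.5 ± 0.581 and the Sprouty genes from 21.1 ± 1.52 to 22.7 ± 0.871. Within the phosphatases, Dusp6 went from 36.3 to 41.7% of the summed level and Dusp4 from 23.1 to 31.1%. The shares of Dusp1, Dusp5 and Dusp10 went from 12.9, 15.4 and 12.4% to 9.07, 9.04 and 9.09%. Within the Spred pair Spred2 went from 46.6 to 54.5%, and within the Sprouty genes Spry2 went from 50.7 to 57.9%.

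**Figure D2:**
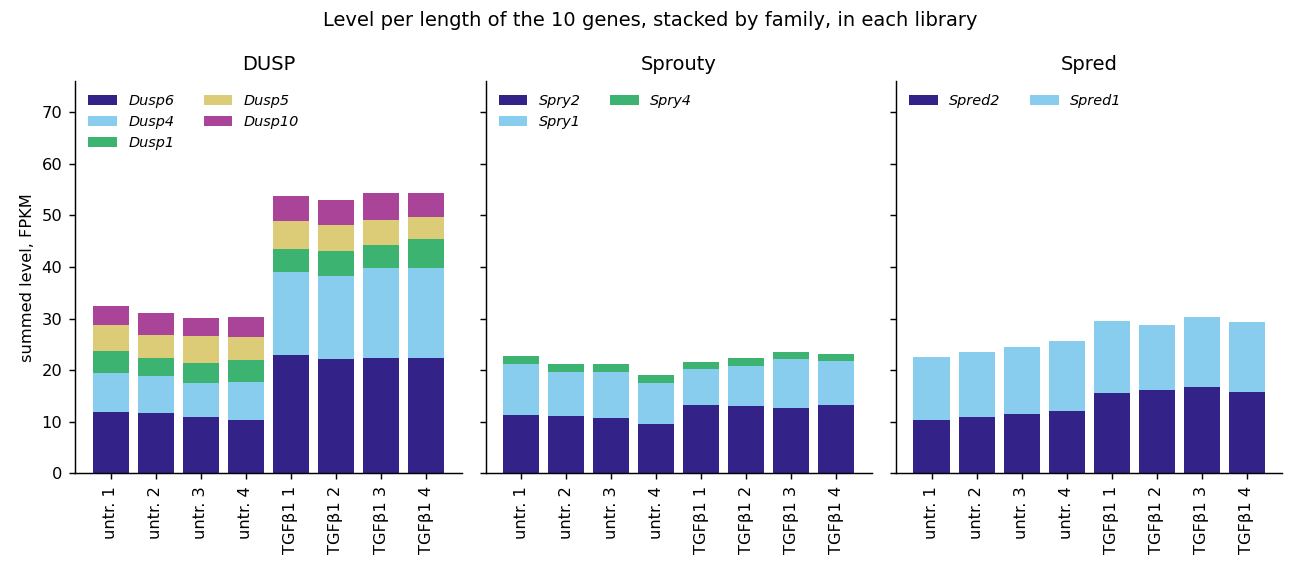
Summed level in FPKM, per kilobase of exonic sequence, of the phosphatase, Sprouty and Spred members in each of the 8 libraries, with 1 stacked bar per library and 1 segment per gene. The phosphatase bars stand at 30.2 to 32.3 FPKM in untreated and 52.9 to 54.3 FPKM in TGFβ1 libraries, with the Dusp6 and Dusp4 segments growing most, and the Sprouty bars overlap between the groups.

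Because a ratio of 2 genes in the same library does not depend on library scaling, the 14 pairs within families were compared by their log2 count ratio. The ratio differed between the groups for 10 of 14 pairs in an exact two-sided permutation test, each at p = 0.0286, the smallest that 4 against 4 libraries allow, and 0.04 after adjustment over the 14 pairs. The groups did not overlap in these 10 pairs, and the same held for 68.7% of all pairs of genes tested, so the count of pairs is near the background. Dusp4 gained on Dusp5 by 1.20 (SE 0.127) and on Dusp10 by 0.87 (SE 0.0867), and the ratio of Dusp1 to Dusp4 fell by 0.94 (SE 0.0813). Dusp4 also gained on Dusp6, by 0.23 (SE 0.0623), from a log2 ratio of -0.85 to -0.61. Dusp6 gained 0.64 on Dusp10 (SE 0.0849), and the ratios of Dusp5 and of Dusp1 to Dusp6 fell by 0.97 and by 0.71.

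Outside the phosphatases, the Spry1 to Spry2 ratio turned from 0.20 to -0.22, a difference of -0.42 (SE 0.107), and Spry2 gained 0.44 on Spry4 (SE 0.0816). The Spred1 to Spred2 ratio went from 0.75 to 0.29, a difference of -0.46 (SE 0.0458). The 4 pairs that did not pass were Dusp1 with Dusp5 (difference 0.26, SE 0.168), Dusp1 with Dusp10 (-0.069, SE 0.151), Dusp5 with Dusp10 (-0.32, SE 0.132) and Spry1 with Spry4 (0.024, SE 0.102). Their exact permutation p-values were 0.257, 0.714, 0.0571 and 0.714, or 0.3, 0.714, 0.0727 and 0.714 after adjustment.

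**Figure D3:**
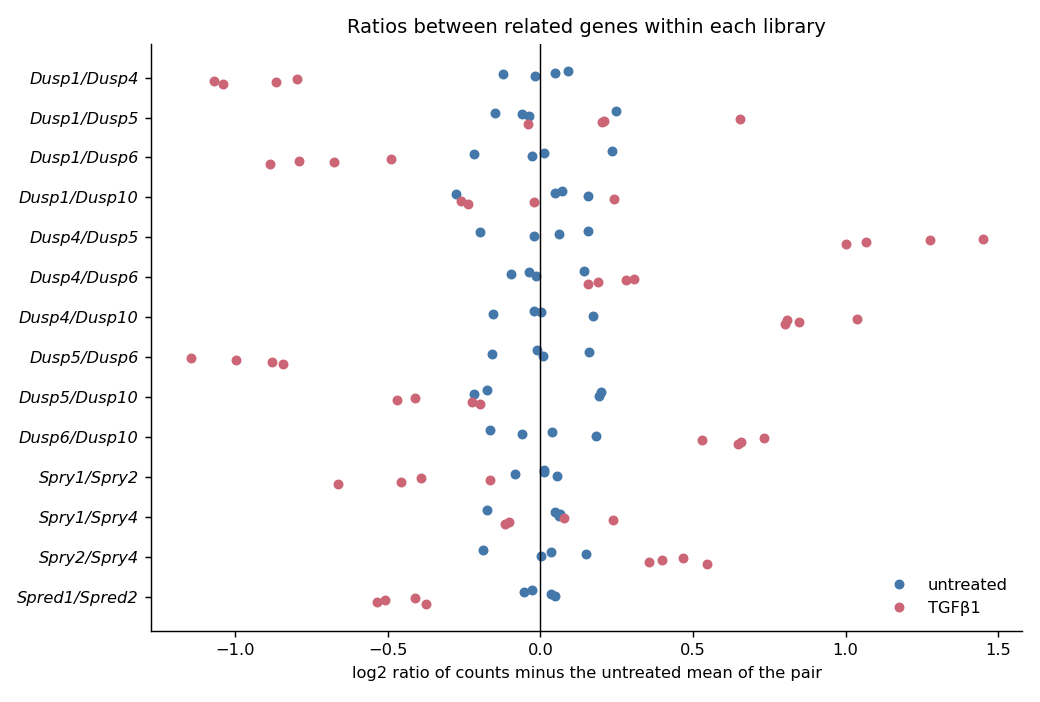
Log2 ratio of counts for the 14 pairs of members within a family, minus the untreated mean of the pair, with 1 point per library. The groups are apart for 10 of the 14 pairs, with the Dusp4 to Dusp5 ratio moving most, by 1.20.

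Other members of the MAPK phosphatase class were read beside these. Of 5 genes, 4 were tested, of which 1 rose and 2 fell, with a median log2 fold change of -0.15. Over all genes tested, 37.6% rose and 38.0% fell. Dusp7, a cytoplasmic ERK phosphatase like Dusp6, rose from 21.8 ± 1.88 to 31.6 ± 2.85 CPM (log2 fold change 0.54, FDR 3.71e-11). Dusp9, of the same type, fell from 6.65 ± 0.645 to 3.26 ± 0.333 CPM (log2 fold change -1.02, FDR 1.71e-15), and Dusp16, a JNK and p38 phosphatase, fell by 0.26 on the log2 scale (FDR 9.95e-08). Dusp8 had a log2 fold change of -0.045 (FDR 0.603), and Dusp2, with 0 to 2 counts in untreated and 3 to 14 in TGFβ1 libraries, was not tested.

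**Figure D4:**
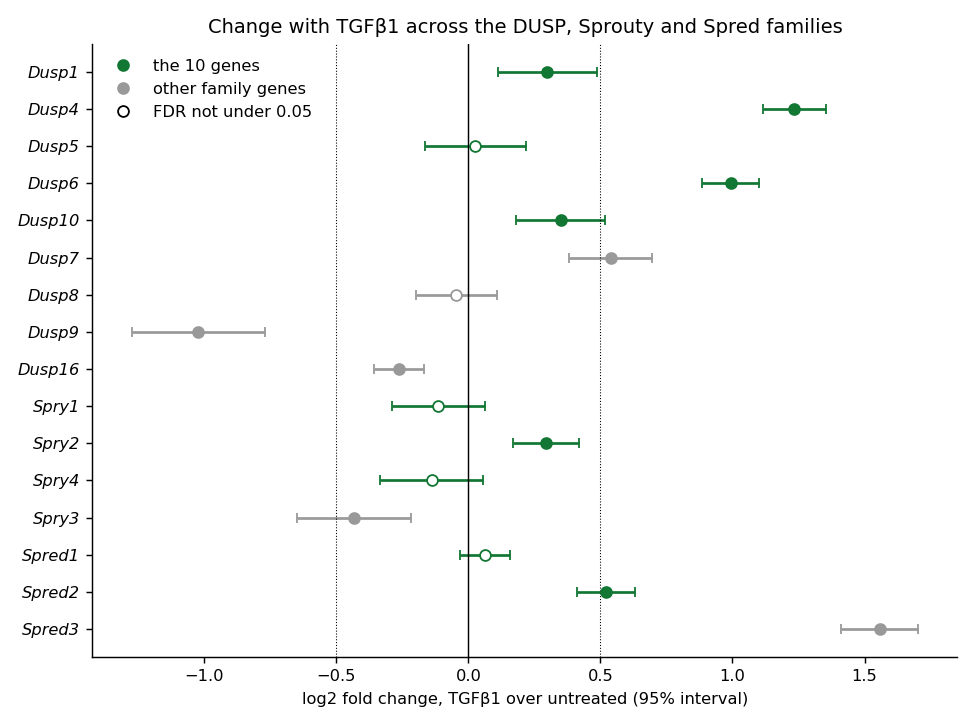
Log2 fold change, TGFβ1 minus untreated, with the 95% interval for the members and for Dusp7, Dusp8, Dusp9, Dusp16, Spry3 and Spred3. Open points did not pass the FDR of 0.05, and dotted lines stand at -0.5 and 0.5. Further Dusp genes that were tested are not shown. Dusp4 and Dusp6 are the highest of the 10 members, at 1.23 and 0.99, and Dusp9 is at -1.02.

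The counts of the following lists stand beside the 37.6% of all genes tested that rose and the 38.0% that fell. These lists were chosen with earlier results of these data known, so a count above these shares is a description and not a test. Among 16 other inhibitors of receptor tyrosine kinase and RAS signalling, 12 rose, 2 fell and 2 did not pass, with a median log2 fold change of 0.58. The largest rise was that of Spred3, the third Spred gene, from 9.37 ± 0.607 to 27.6 ± 1.09 CPM (log2 fold change 1.56, FDR 2.45e-100). Dab2ip, a RAS GTPase-activating protein, rose by 0.85. Pebp1, which binds and inhibits RAF, fell by 0.75, and Spry3 fell by 0.43 (FDR 0.000149).

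Of 21 genes of the ERK cascade itself, 6 rose, 13 fell and 2 did not pass, with a median log2 fold change of -0.18. Hras and Araf rose by 0.67 and by 0.60, whereas Mapk3, which encodes an ERK itself, fell by 0.68. Of 18 tested genes of the JNK and p38 cascades, 6 rose and 9 fell, with a median of -0.18. Mapkapk3, a kinase downstream of p38, rose by 1.23 and Map2k4 by 0.60, while Map3k1 fell by 0.98 and Map3k4 fell by 0.73.

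Genes commonly induced by ERK rose in 12 of 15 tested cases, 1 fell and 2 did not pass, with a median log2 fold change of 0.69. Fosl1, a subunit of AP-1, went from 3.88 ± 0.118 to 44.4 ± 1.28 CPM (log2 fold change 3.52), with a likelihood ratio statistic of 2157 and an FDR below what the computer represents. Etv4, an ETS factor, went from 7.14 ± 1.31 to 33.9 ± 2.50 CPM (log2 fold change 2.25, FDR 6.96e-111). Epha4 fell from 5.99 ± 0.556 to 2.43 ± 0.352 CPM (log2 fold change -1.30, FDR 6.15e-21). Ier2 and Ier3, with log2 fold changes of 0.21 and -0.019, did not pass (FDR 0.228 and 0.809), and Etv1 was not tested.

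**Figure D5:**
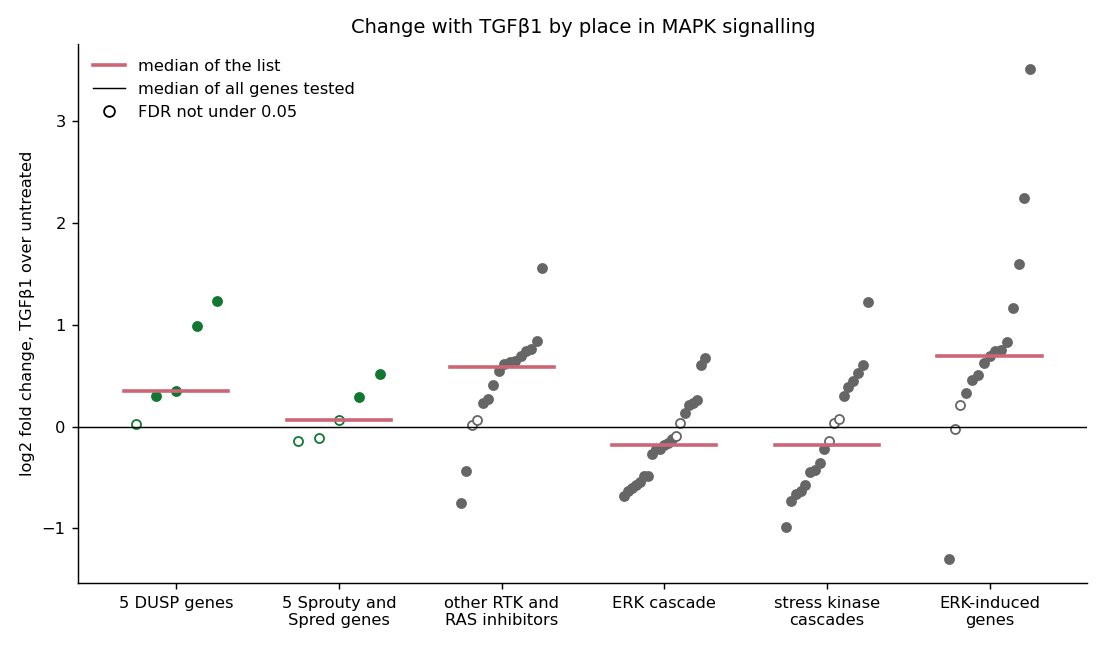
Log2 fold change, TGFβ1 minus untreated, of every tested gene of the members and of the pathway lists, with 1 point per gene, open where the FDR was not under 0.05, and the median of each list. The medians are 0.69 for ERK-induced genes, 0.58 for other inhibitors of receptor tyrosine kinase and RAS signalling, 0.35 and 0.065 for the phosphatase and the Sprouty and Spred members and -0.18 for the ERK cascade. The stress kinase cascades are those of JNK and p38.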

How the data were processed

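Poly(A) RNA was sequenced from stranded libraries with single-end 75-base reads. The submitters' processing notes name bcl2fastq 2.20.0.422, STAR 2.7.3a, featureCounts 1.5.1 and GRCm38/mm10. Annotation release and strand setting are not given in the sources used here. The authors deposited raw counts of reads per gene, without normalization.

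Counts were fitted in R 4.3.3 with edgeR 4.0.16 over 13818 genes (filterByExpr on groups, TMM, glmFit, glmLRT), with Benjamini-Hochberg FDRs over these genes and a threshold of 0.05. SEs came from the fitted model, and 95% intervals are 1.96 SE on either side. CPM used TMM library sizes. Ratios used counts plus 0.5, tested in scipy 1.17.1. Alternatives were the quasi-likelihood test, DESeq2 1.42.0, its size factors, total counts, no filter, 1 CPM in at least 4 libraries, glmTreat, the replicate block, libraries left out, limma 3.58.1 and 5 added counts for ratios. The paralog pairs without each library were added after seeing the data. The fit was tested on simulated data.

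Members and lists were chosen with earlier results of these data known. Named genes were all members and, per list, the 2 called genes with the largest rise and the 2 with the largest fall among those with a mean of at least 1 CPM; some genes of the lists are not reported here. Groups came from the labels.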

Additional observations from a re-analysis of the deposited data

How the results depend on the processing

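Of 160 values of the 10 members under alternatives, 148 kept their direction and side of the threshold. With glmTreat against 0.5, Dusp1 (0.30), Dusp10 (0.35), Spry2 (0.29) and Spred2 (0.52) were no longer called, leaving 2 members called, both higher, and 4149 genes in all (2342 higher, 1807 lower) against 10449 (5198 higher, 5251 lower), since that test asks for a larger change. Spry4 became called lower with total counts (-0.21), and Spry1 without TGFβ1 replicate 3 (-0.19, range without each library -0.19 to -0.049), so that 1 member was lower in each case (range without each library 0 to 1). The near-zero change of Dusp5 turned to -0.041 with total counts, to -0.0050 without a filter and ranged from -0.026 to 0.091 without each library; it was below 0 without untreated replicate 2, untreated replicate 4 or TGFβ1 replicate 1. That of Spred1 turned to -0.0030 with total counts; the causes were not tested. Pairs of members whose ratio differed numbered 10 with 5 added counts and 11 with limma.

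Libraries with the same replicate number did not deviate together (correlations -0.193 to -0.0336, no library closest to its own number), so the numbers were not taken as pairs. With the replicate block 6 members were called, and 10152 genes in all. Spry4 and Dusp5, which had the lowest counts of the group, had its widest intervals.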

Other observations

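The atypical dual-specificity phosphatases, small relatives of the MAPK phosphatases that lack their kinase-binding domain, did not move together. Of 11 tested, 4 rose, 3 fell and 4 did not pass, with a median log2 fold change of 0.11. The shares over all genes tested were 37.6% higher and 38.0% lower. Dusp15 went from 2.31 ± 0.151 to 11.7 ± 0.899 CPM (SD, n = 4 each; log2 fold change 2.33, edgeR FDR 1.36e-81), a larger change than in any of the 10 feedback inhibitors. Dusp3, a phosphatase of ERK and JNK, rose by 0.71. Dusp18 fell by 1.05 and Dusp22 fell by 0.90.

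Of 15 tested receptor tyrosine kinases, which feed the cascade that the feedback genes restrain, 8 rose, 5 fell and 2 did not pass. Their median log2 fold change was 0.23. Of all genes tested, 37.6% rose and 38.0% fell. The VEGF receptors Flt1 and Kdr rose by 1.24 and by 0.93. Pdgfra went from 160.0 ± 10.5 to 57.8 ± 3.91 CPM (log2 fold change -1.47, edgeR FDR 6.73e-127), and Met fell by 0.87.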
